A study of Homo sapiens with 5 samples.

Results

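Transcripts of 9 genes that act in the joining of broken DNA ends, or in the 53BP1 pathway that favours it, were followed in a microRNA pull-down from HEK293T, a cell line derived from human embryonic kidney and expressing the SV40 large T antigen. The genes were taken by name (TP53BP1, RIF1, XRCC4, XRCC5, XRCC6, LIG4, PRKDC, NHEJ1 and PAXIP1), and each probe annotated to one of them was used. The table of values held 10 probes for 6 of the 9 genes, among 10040 probes with 1 gene symbol for 8127 genes in all. LIG4, XRCC4 and NHEJ1, the 3 genes of the ligation step, had no probe in that table and were not measured here.

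The pull-down samples were 2 arrays of RNA recovered on streptavidin beads from cells transfected with biotin-labelled miR-182-5p (200 pmol of duplex, harvest after 24 h). They were set against 3 arrays from mock-transfected cells of the same line, whose records also give 200 pmol of duplex and harvest after 24 h. The pull-down field of the mock reads "none" although the bead protocol is attached to every sample. The bead isolation and the microRNA therefore cannot be told apart in this comparison. The labels do not name separate cultures, so the spread behind each p-value is that between arrays and may be no more than technical. The series is titled for DNA repair, and the comparison asks which transcripts were recovered with miR-182.

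Non-homologous end joining repairs a double-strand break by direct ligation. The Ku heterodimer (XRCC5 and XRCC6) holds the ends and recruits the DNA-PK catalytic subunit (PRKDC), and DNA ligase IV with XRCC4 and XLF seals them. 53BP1 (TP53BP1) binds modified chromatin at breaks and, through RIF1 and PTIP (PAXIP1), limits the resection that would commit the ends to homologous recombination. A microRNA pairs with transcripts mainly through its seed near the 5′ end. The mature sequence of the transfected microRNA is shown because the pull-down is defined by it; capitals mark the seed, bases 2 to 8, and the sequence is RefSeq's for MIR182 at chr7:129770447-129770470, minus strand, GRCh38.p14.
hsa-miR-182-5p: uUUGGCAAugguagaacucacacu

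All values are the authors' deposited log2 values, which had a lower limit near 8 and reached 15.19 over the 5 arrays, and every difference is pull-down minus mock on that scale. Array medians lay between 8.72 and 8.81. The shares of probes within 0.1 of an array's lowest value were 14.9% and 15.4% in the pull-down arrays and 19.9% to 26.7% in the mock arrays. Differences of such dim probes are compressed. Across probes, arrays of different groups correlated at r = 0.885 to 0.904, against 0.978 within the pull-down and 0.980 to 0.987 within the mock; probes are not independent replicates. The number of arrays limits the precision of every value given here.

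TP53BP1 and RIF1 were higher in the pull-down and XRCC5 was lower, while PAXIP1, XRCC6 and PRKDC did not pass the test (limma, Benjamini-Hochberg adjusted p under 0.05 over 8127 genes). The 3 genes of the 53BP1 axis all had positive differences, from 0.47 to 0.68. The 3 genes of Ku and DNA-PK all had negative ones at the probes that stand for them, from -0.62 to -0.17. That of XRCC6 changed sign without pull-down array 1, and the dimmest PRKDC probe differed by 0.01. Over all genes, 4246 differences were positive and 3881 negative, and these signs are no result about either set. Of the 6 measured genes 2 were called higher, beside 20.2% of all genes, and 1 was called lower, beside 15.0% of all genes. With 6 genes, these counts are near the background and are no result about the group. The median difference was 0.15 over the 6 genes and 0.02 over all genes. In the plot of every member probe by array, the panels of TP53BP1, RIF1 and XRCC5 show the groups apart. The panels of PAXIP1 and of probe 2 of XRCC6, which did not pass, show them apart more narrowly.

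**Figure D1:**
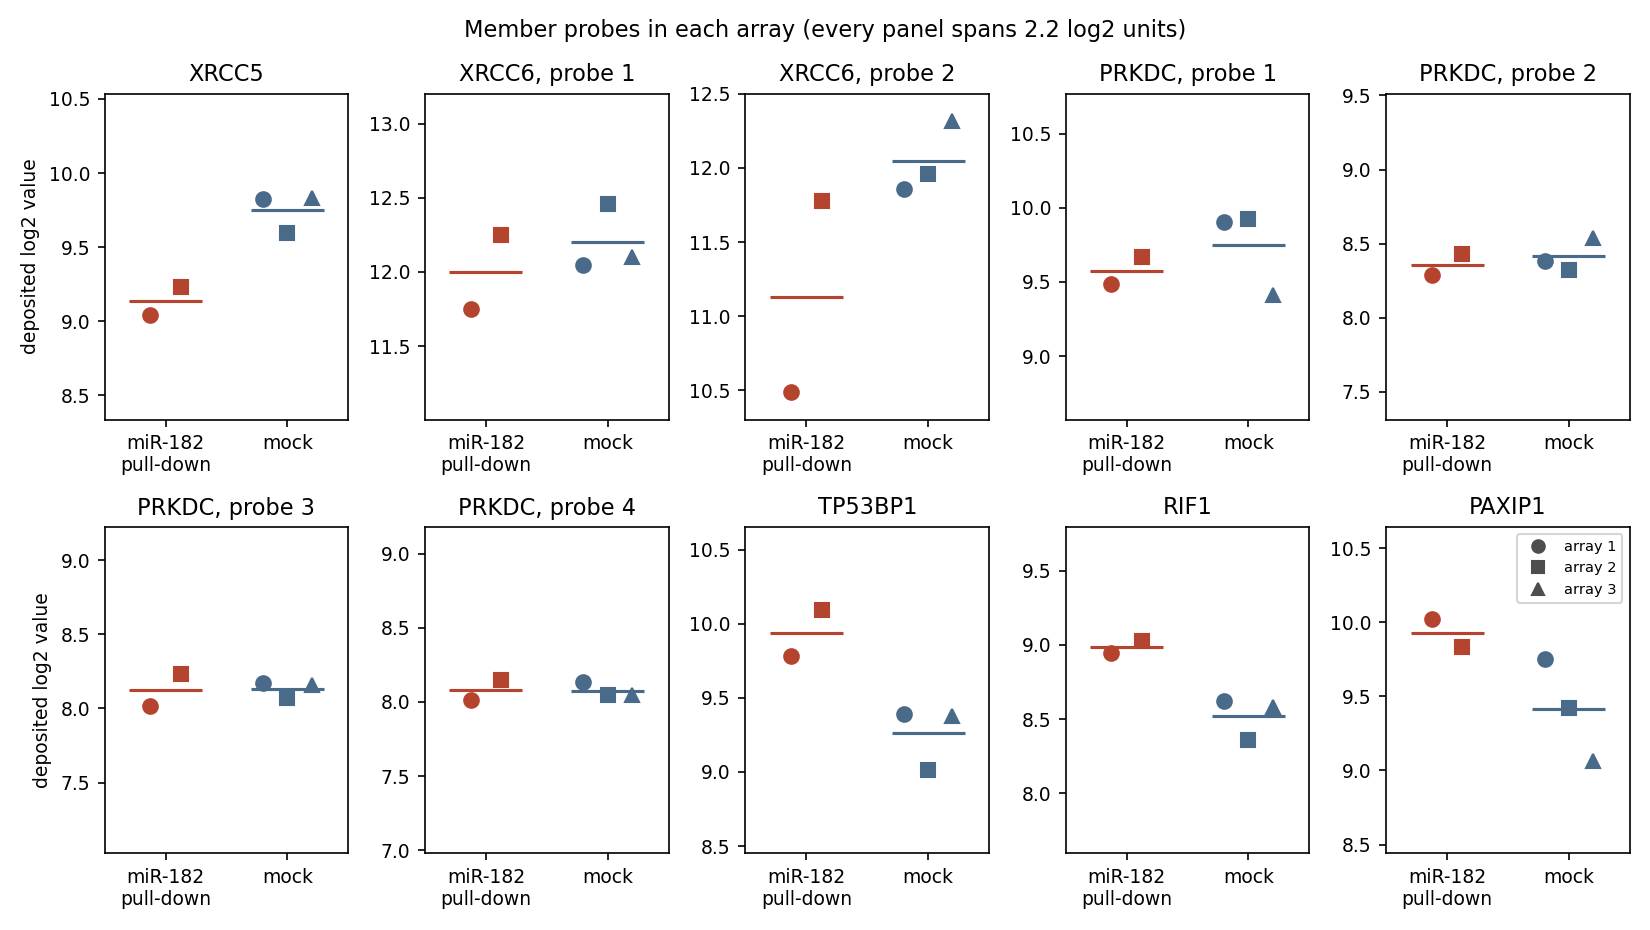
Deposited log2 value of each of the 10 member probes (y axis) in the 2 miR-182 pull-down arrays (left, red) and the 3 mock arrays (right, blue); marker shapes give the array number, horizontal lines the group means, and each panel spans the same height. TP53BP1, RIF1 and PAXIP1 lie higher in both pull-down arrays than in any mock array, XRCC5 lies lower, and probe 2 of XRCC6 has its lowest value, 10.49, in pull-down array 1.

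TP53BP1, the scaffold of the pathway, had log2 values of 9.78 and 10.09 in pull-down arrays 1 and 2, against 9.39, 9.01 and 9.38 in mock arrays 1, 2 and 3. Both pull-down arrays were above every mock array, and the gap between the groups, 0.39, was larger than the SD of either group (0.22 in the pull-down and 0.21 in the mock). Pull-down and mock averaged 9.94 ± 0.22 and 9.26 ± 0.21 (SD, n = 2 and 3). The difference was 0.68 (SE 0.17, 95% confidence interval 0.24 to 1.12), or 1.60-fold, with a Benjamini-Hochberg adjusted p of 0.0375 (limma). Of all genes, 88.3% had a lower difference than TP53BP1.

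That call rested on all 5 arrays. The adjusted p of TP53BP1 (limma, Benjamini-Hochberg) became 0.0715 or 0.157 when pull-down array 1 or 2 was left out. It became 0.0745, 0.0663 or 0.0589 when mock array 1, 2 or 3 was left out. The difference itself stayed between 0.52 and 0.83 in these 5 fits. A fit with 1 array fewer also has fewer degrees of freedom for every gene.

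RIF1, which 53BP1 brings to breaks and which restrains resection there, had log2 values of 8.94 and 9.03 in the pull-down arrays, against 8.62, 8.36 and 8.58 in the mock arrays. The groups did not overlap, and the pull-down arrays lay closer together (SD 0.06) than the mock arrays (SD 0.14). The difference was 0.47 (SE 0.10, 95% confidence interval 0.20 to 0.74), or 1.38-fold (limma, Benjamini-Hochberg adjusted p = 0.0272). The mock values of RIF1 were within 0.7 of the lowest values in the table, a range in which differences can be compressed.

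The RIF1 call was lost in 4 of the 5 fits with an array left out. Its adjusted p (limma, Benjamini-Hochberg) became 0.0897 or 0.119 when pull-down array 1 or 2 was left out, and 0.0509 or 0.0508 when mock array 1 or 3 was. It was 0.0431 without mock array 2, and the differences ranged from 0.39 to 0.52.

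PAXIP1, the BRCT-domain protein PTIP that binds phosphorylated 53BP1 and also belongs to a histone methyltransferase complex, had log2 values of 10.02 and 9.83 in the pull-down arrays, against 9.75, 9.42 and 9.06 in the mock arrays. The pull-down arrays lay above the mock arrays by a gap of only 0.08, and the mock arrays spread with an SD of 0.34. Its difference of 0.52 (SE 0.22) was larger than that of RIF1 but did not pass the test (limma, Benjamini-Hochberg adjusted p = 0.140), with a 95% confidence interval of -0.07 to 1.10. When genes with a mean log2 value under 9 were left out of the fit, the same difference passed (adjusted p = 0.0429, limma, Benjamini-Hochberg). All 3 genes of the 53BP1 axis had pull-down arrays above mock arrays, a pattern found in 35.0% of all genes.

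**Figure D2:**
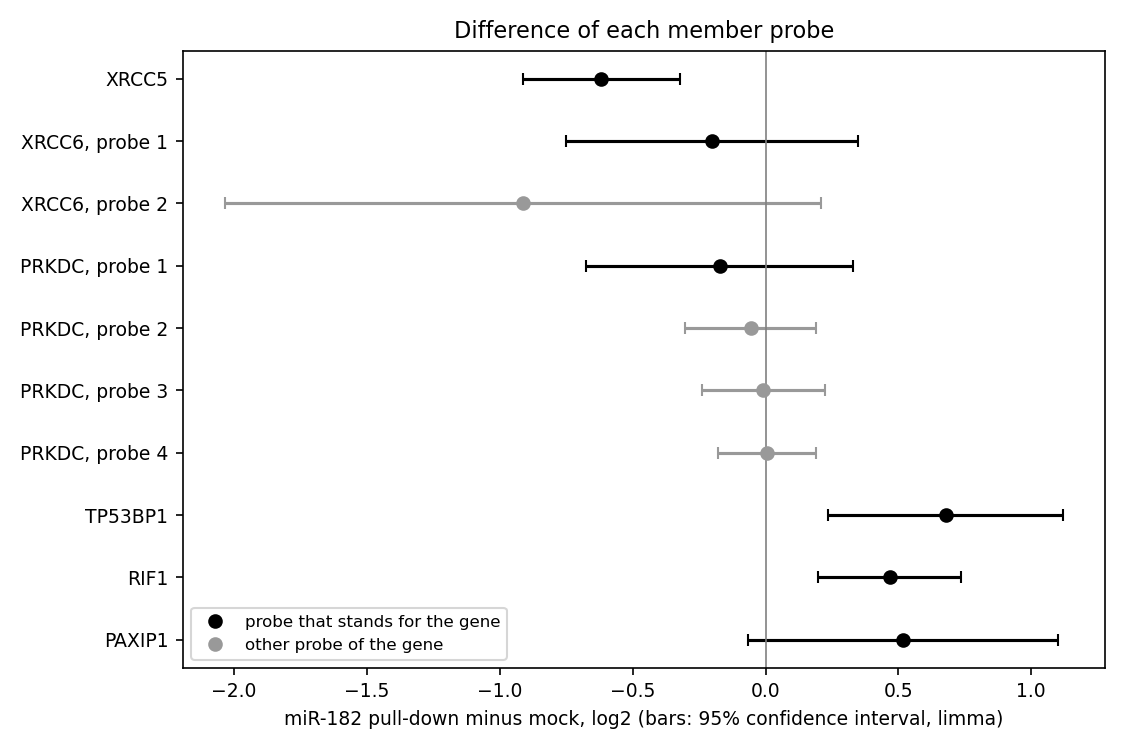
Difference between miR-182 pull-down and mock for each member probe on the log2 scale (x axis), with 95% confidence intervals from limma; black points are the probes that stand for their gene and grey points its other probes. The intervals of TP53BP1 and RIF1 lie above 0 and that of XRCC5 below 0, while those of PAXIP1 and of all probes of XRCC6 and PRKDC include 0.

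XRCC5, the Ku80 subunit, had log2 values of 9.04 and 9.23 in the pull-down arrays, against 9.83, 9.60 and 9.83 in the mock arrays. Both pull-down arrays were below every mock array, as in 30.1% of all genes, and the gap of 0.37 was larger than the SD of each group (0.14 in the pull-down and 0.13 in the mock). The difference was -0.62 (SE 0.11, 95% confidence interval -0.91 to -0.32), which is 0.651 of the mock level (limma, Benjamini-Hochberg adjusted p = 0.0171). Only 12.7% of genes had a lower difference. The adjusted p of XRCC5 (limma, Benjamini-Hochberg) became 0.0816 when pull-down array 1 was left out and 0.0585 when mock array 1 was. It was 0.0278 to 0.0447 with any other array left out, and the difference stayed between -0.71 and -0.52.

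XRCC6, the Ku70 subunit and partner of XRCC5, was measured by a pair of probes annotated to the same transcript, NM_001469. Both differences were negative and neither passed, but they differed in size. The probe with the higher mean, which stands for the gene, had log2 values of 11.75 and 12.25 in the pull-down arrays, against 12.05, 12.46 and 12.10 in the mock arrays. The groups overlapped, and the difference was -0.20 (SE 0.21, 95% confidence interval -0.75 to 0.35; limma, Benjamini-Hochberg adjusted p = 0.509). Without pull-down array 1 it was 0.048, so its sign rests on that array.

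The other XRCC6 probe had log2 values of 10.49 and 11.77 in the pull-down arrays, against 11.86, 11.96 and 12.32 in the mock arrays. Both pull-down arrays were below the mock arrays, but they lay 1.29 apart from each other, a gap exceeded by only 0.179% of the 11184 probes. In the fit over all probes this probe differed by -0.91 (SE 0.42, 95% confidence interval -2.03 to 0.21; limma, Benjamini-Hochberg adjusted p = 0.171). The mean of both probes gave -0.56. RefSeq lists 5 named pseudogenes of XRCC6 and none of the other 8 genes, and whether they contribute to the signal of either probe was not tested.

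Of the Ku genes, XRCC5 was thus called lower and XRCC6 was not. The interval of XRCC6 at its main probe, -0.75 to 0.35, includes the difference of XRCC5, and whether the Ku transcripts differed from each other in recovery was not tested.

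PRKDC, the catalytic subunit of the kinase DNA-PK, had 4 probes, and none passed the test. Its brightest probe, annotated to NM_001081640, had log2 values of 9.49 and 9.67 in the pull-down arrays, against 9.91, 9.93 and 9.42 in the mock arrays. Mock array 3 lay below both pull-down arrays while the other mock arrays lay above them. The difference was -0.17 (SE 0.19, 95% confidence interval -0.68 to 0.33; limma, Benjamini-Hochberg adjusted p = 0.536). Without mock array 3 it was -0.34 (limma, Benjamini-Hochberg adjusted p = 0.0673).

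The second PRKDC probe, annotated to NM_006904, had log2 values of 8.29 and 8.43 in the pull-down arrays and 8.38, 8.32 and 8.54 in the mock arrays, a difference of -0.06. The remaining PRKDC probes differed by -0.01 and 0.01, and came within 0.1 of an array's lowest value on 2 and 3 of the 5 arrays. Those values say little about PRKDC, because a difference at the lower limit is compressed.

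With 2 arrays against 3, an exact 2-sided permutation test has 10 splits and cannot go below p = 0.1. TP53BP1, RIF1 and XRCC5 reached that smallest value, and PAXIP1 had an exact permutation p of 0.2. XRCC6 and PRKDC each had 0.6 at the probes that stand for them. The other XRCC6 probe also reached an exact permutation p of 0.1. The plot of all differences shows where the 6 genes lie among the rest: none of them came near the extremes of the table, which ran from -3.44 to 3.15.

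**Figure D3:**
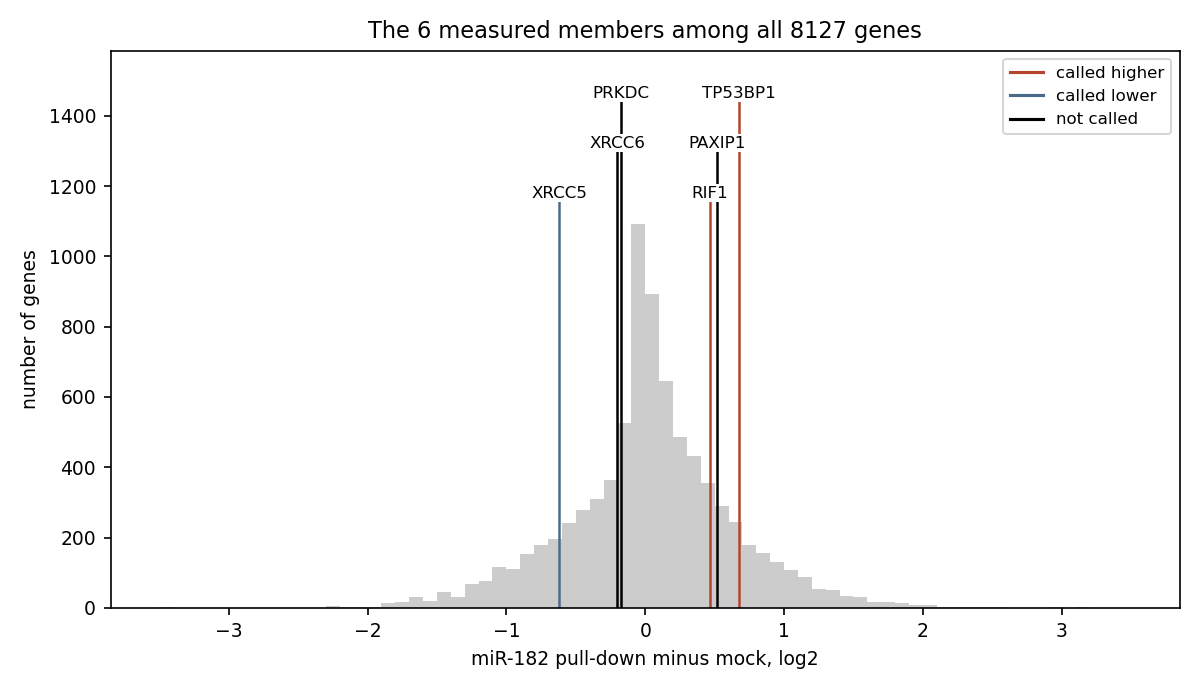
Number of genes (y axis) by pull-down minus mock difference on the log2 scale (x axis) for all 8127 genes, with vertical lines at the 6 measured members, red where called higher, blue where called lower and black where not called. The members lie between -0.62 (XRCC5) and 0.68 (TP53BP1), inside the bulk of the distribution.

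The plot of adjusted p-values with 1 array left out sets the 3 calls side by side. TP53BP1 passed in none of these 5 fits, RIF1 in 1 and XRCC5 in 3. With pull-down array 1 or mock array 1 left out no member was called (limma, Benjamini-Hochberg), although at an unadjusted p under 0.05 there were 2 higher and 1 lower without that pull-down array and 3 higher and 1 lower without that mock array. Over all genes, calls higher numbered 1640 with every array, and 958 without pull-down array 1.

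**Figure D4:**
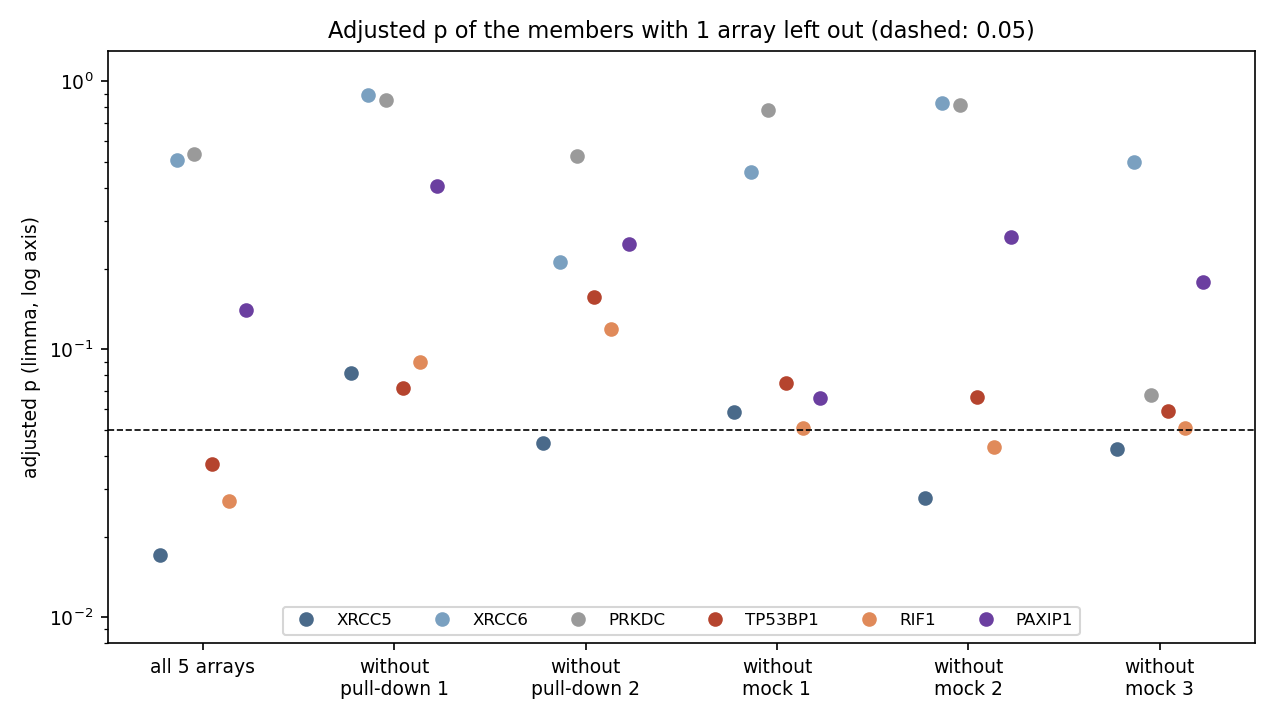
Adjusted p of the 6 members (limma, logarithmic y axis) with all 5 arrays and with each array left out in turn (x axis); the dashed line is the threshold of 0.05. With all arrays XRCC5, RIF1 and TP53BP1 lie below the line, and TP53BP1 lies above it whichever array is left out.

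Genes with a pattern most like that of a called member over the 5 arrays were taken by the root mean square distance between gene-centred log2 values. They are a description with no test, and the groups' difference sets most of the likeness. Nearest to TP53BP1 were MRPS9 (distance 0.04), HIF1A (0.06) and GUCY1A1 (0.06). For RIF1 these were NDC1, HEG1 and DICER1, each at 0.04. For XRCC5 they were NUP133 (0.03), CPVL (0.04) and DDX1 (0.04). Within a distance of 0.1 lay 23 genes for TP53BP1, 207 for RIF1 and 69 for XRCC5, of 8127 genes in all.

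Of 46 further genes that process ends, signal to 53BP1, act after it or compete with it, 32 were measured. Of these, 7 were called higher and 5 lower, beside 20.2% and 15.0% of all genes, and 20 did not pass (limma, Benjamini-Hochberg adjusted p under 0.05). Their median difference was 0.06, against 0.02 for all genes. The plot of these genes by role shows both directions within most roles.

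Among genes of the signalling that brings 53BP1 to breaks or limits its binding there, 2 of 8 were higher and 3 lower. The shares of all genes were 20.2% and 15.0%, and with 8 genes these counts are not shown to differ from the background. Each direction held a gene of either kind. KMT5A, the methyltransferase that makes the H4K20 monomethyl mark from which the 53BP1 binding mark derives, was higher, with 9.92 and 9.96 in the pull-down arrays against 9.16, 9.17 and 9.01 in the mock arrays (difference 0.83, SE 0.08). MDC1, the adaptor that reads phosphorylated H2AX, was lower, with 9.92 and 10.41 in the pull-down arrays against 11.43, 10.97 and 11.04 in the mock arrays (difference -0.98, SE 0.22). The groups did not overlap for either gene, as in 35.0% of all genes upward and 30.1% downward. The ubiquitin ligase RNF8, which acts after MDC1, was lower by a difference of -0.51, NUDT16L1, which binds and masks the 53BP1 Tudor domain, differed by -0.61, and the demethylase KDM4A, which competes with 53BP1 for its histone mark and was near the lower limit in the mock, by 0.36. H2AX itself differed by -1.07 without passing (limma, Benjamini-Hochberg adjusted p = 0.0670), and its mock arrays spread widely, with 8.31 ± 0.03 in the pull-down and 9.38 ± 0.54 in the mock (SD, n = 2 and 3).

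Among 53BP1 effectors and PTIP partners, 3 of 8 were higher and none was lower, beside 20.2% and 15.0% of all genes; with 8 genes this is not shown to differ from the background. KMT2C, a histone methyltransferase whose complex holds PTIP, had 9.03 and 9.11 in the pull-down arrays against 8.15, 8.06 and 8.04 in the mock arrays. Mock arrays 2 and 3 were within 0.1 of their lowest value, so its difference of 0.99 (SE 0.07) is compressed and can understate the change. Other partners of PTIP did not pass and went both ways. PAGR1 had both pull-down arrays above the mock arrays with a difference of 0.44 (limma, Benjamini-Hochberg adjusted p = 0.128), NCOA6 had both below with a difference of -0.25 (0.154), and KDM6A differed by 0.04. DYNLL1, a light chain that binds 53BP1, was higher by 0.40 and STN1, of the CST complex that counters resection, by 0.36. MAD2L2 and SHLD2, of the REV7 and shieldin branch, differed by 0.21 and -0.16 and did not pass.

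Of 7 measured end-processing and accessory genes, 1 was higher and 1 lower, beside 20.2% and 15.0% of all genes. With 7 genes these counts are no result about the role. PAXX, which binds Ku and stabilises the ligation complex, had 9.13 and 9.19 in the pull-down arrays against 9.96, 10.30 and 10.49 in the mock arrays (difference -1.09, SE 0.17). It was called lower, as XRCC5 was, a call shared by 15.0% of all genes. APTX, which removes abortive ligation products, was higher by 0.71 (SE 0.13), and its other probe gave 0.23 without passing. TDP1, which clears DNA ends of trapped topoisomerase, had the most negative difference of these genes, -1.63 (SE 0.52), but mock arrays from 10.73 to 12.43 and an adjusted p of 0.0723 (limma, Benjamini-Hochberg). That value is from 1 of 2 TDP1 probes, and the other is not described here.

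Resection genes, which oppose end joining, had 1 of 4 higher, beside 20.2% of all genes. NBN, a subunit of the complex that starts resection, had 10.94 and 10.61 in the pull-down arrays against 9.60, 9.09 and 9.40 in the mock arrays (difference 1.41, SE 0.19; limma, Benjamini-Hochberg adjusted p = 0.00865). This was the largest positive difference among the 32 further genes and the 6 members. MRE11, of the same complex, differed by 0.02. Its values, from 8.14 to 8.38 over the arrays, were near the lower limit, so that small difference says little. In the list of alternative end joining, 0 of 5 were higher and 1 was lower, beside 20.2% and 15.0% of all genes. With so few genes, the counts of resection and of alternative end joining are no result about either role. The lower gene was PARP3 (-0.38, SE 0.06), which is also known to act with APLF in Ku-dependent joining, while POLQ and LIG3 differed by 0.07 and 0.15.

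**Figure D5:**
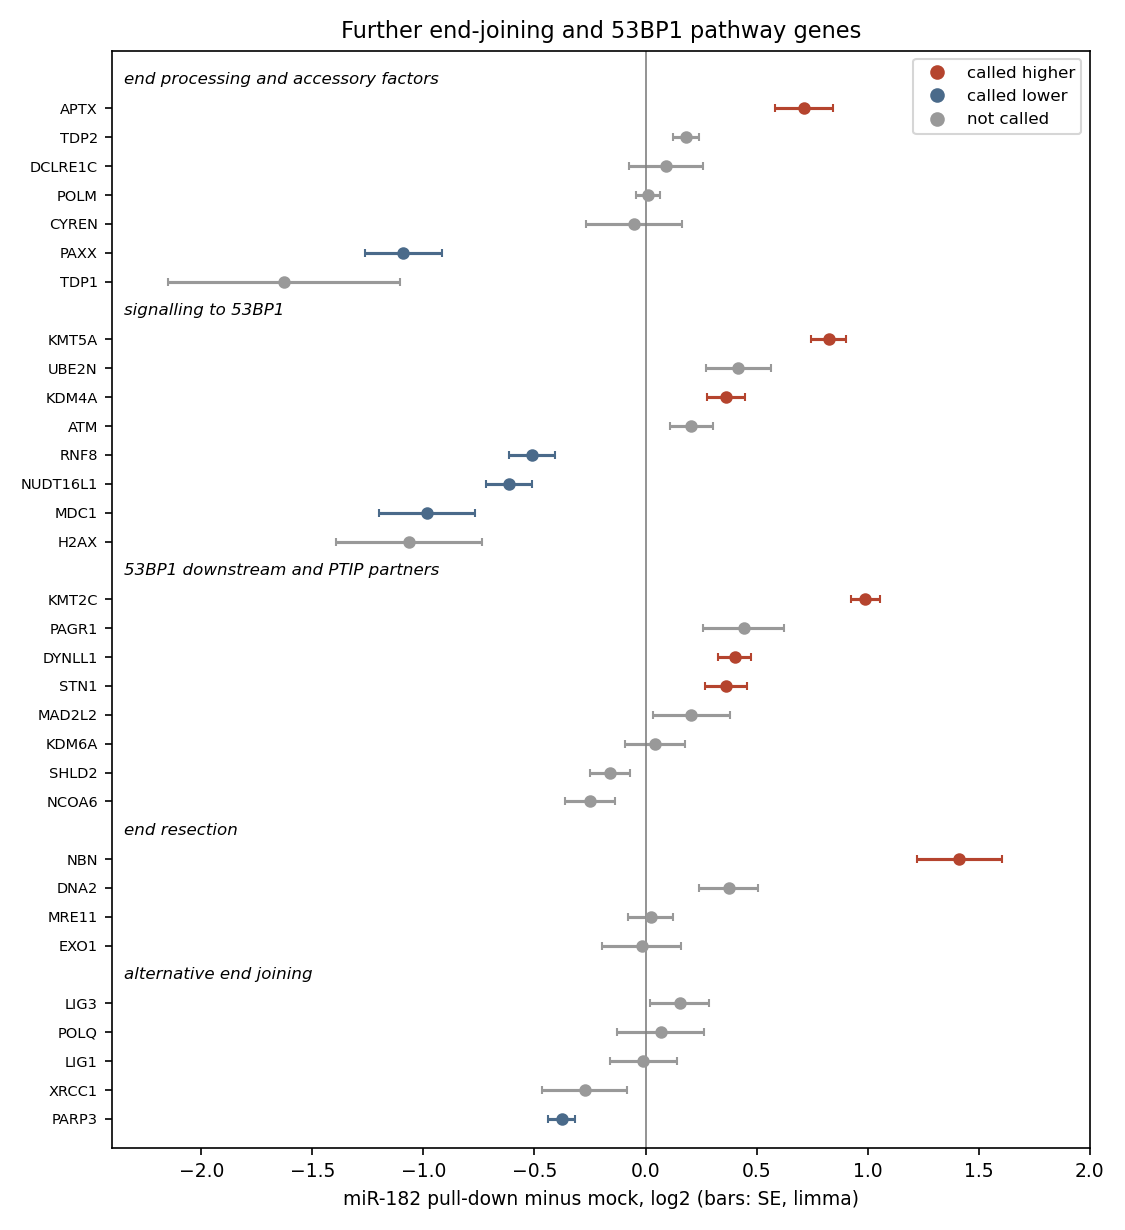
Pull-down minus mock difference on the log2 scale (x axis) of the 32 further pathway genes measured, grouped by role, with bars for the SE from limma; red is called higher, blue called lower and grey not called. NBN at 1.41 and KMT2C at 0.99, a difference compressed by the lower limit in the mock, are the highest values plotted, and TDP1 at -1.63, grey with a wide bar, is the lowest.

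KMT2C, KMT5A and NBN were called in each of the 5 fits with 1 array left out; the other 9 calls among the further genes were lost in at least 1. Without pull-down array 1 the calls of DYNLL1, STN1, PARP3, APTX, PAXX, RNF8, NUDT16L1 and MDC1 were lost, at adjusted p-values from 0.0504 to 0.164 (limma, Benjamini-Hochberg). Without pull-down array 2, STN1, PARP3, PAXX and KDM4A were lost, at 0.0577 to 0.124. Leaving out mock array 1 ended the calls of DYNLL1, STN1, APTX, KDM4A, RNF8 and MDC1 (0.0513 to 0.0797), mock array 2 those of STN1, KDM4A, RNF8 and MDC1 (0.0607 to 0.101), and mock array 3 those of KDM4A, RNF8 and MDC1 (0.0532 to 0.0819).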

How the data were processed

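RNA from 5 samples was measured on Illumina BeadArrays. The log2 values were processed and deposited by the authors; base 2 was inferred from their range. Per the submitters' processing notes lumi 2.2.1 was among the tools, its role unstated; how background, scale and probe selection were handled is not given in the sources used here. A second table with 10 per-sample columns was not used, because their names match no sample label.

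Of 11184 probes, 10040 had 1 symbol in the platform annotation, 1 had several and 1143 had none; 10039 were matched by Entrez identifier to a RefSeq gene record (GRCh38.p14). The probe with the highest mean stood for each of the 8127 genes, and every probe of the 9 genes was also described. TDP1, PAGR1 and MRE11 had 2 probes each, of which only the brighter is given. No further normalization or filter was applied. Genes were fitted with limma 3.58.1 in R 4.3.3 (group as the only term, 2-sided, 3 residual and 1.61 prior degrees of freedom, Benjamini-Hochberg adjustment over 8127 genes), and a gene was called at an adjusted p under 0.05. Alternatives were other scalings, probe choices, a filter, another variance model, a replicate block and leaving out each array.

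The 6 measured genes are named with their values and the 3 without a probe by name; so are the further genes that passed and some that did not. Those of the latter that are named (H2AX, PAGR1, NCOA6, KDM6A, MAD2L2, SHLD2, TDP1, MRE11, POLQ, LIG3, XRCC1, LIG1) were chosen after their values were seen. The genes and lists were chosen with earlier results of these data known.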

Additional observations from a re-analysis of the deposited data

How the results depend on the processing

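Of 77 alternative values for the 6 measured genes, 61 kept both their direction and their side of the threshold. Many of these belonged to genes that stayed uncalled: 12 of 13 for XRCC6, 13 of 13 for PRKDC and 12 of 13 for PAXIP1. For the called genes, 7 of 13 were kept for TP53BP1, 7 of 12 for RIF1 and 10 of 13 for XRCC5. TP53BP1 and RIF1 stayed called higher and XRCC5 lower under quantile normalization, median centring, cyclic loess, the mean of all probes, the fit over all probes and the trended robust variance. Each of these genes had 1 probe, so the mean of all probes and the fit over all probes reused the same values. Those settings could not test the calls with another probe. With genes of mean log2 value under 9 left out, RIF1 was not tested, PAXIP1 was called at a difference of 0.52, further genes called higher numbered 3, and 954 of all genes were higher.

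The replicate numbers are shared by arrays 1 and 2 of both groups, with no label that ties them to a culture. Deviations from the group means of arrays with the same number correlated at r = 0.04 (number 1) and 0.12 (number 2). Pairs with different numbers ranged from -0.12 to 0.07. With 2 pull-down arrays, the pull-down deviations mirror each other, so these values are not independent. With the replicate number as a block on 4 arrays, no member was called (0 higher, 0 lower; 3 and 2 at an unadjusted p under 0.05 by limma), with differences of 0.74 for TP53BP1, 0.50 for RIF1 and -0.58 for XRCC5, and 3 further genes were higher and 3 lower, beside 1289 and 1132 of all 8127 genes. That fit has fewer arrays and degrees of freedom.

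With 1 array left out, differences ranged from 0.52 to 0.83 for TP53BP1, 0.39 to 0.52 for RIF1, 0.34 to 0.69 for PAXIP1, -0.71 to -0.52 for XRCC5, -0.34 to -0.08 for PRKDC and -0.45 to 0.048 for XRCC6, which changed sign to 0.048 without pull-down array 1. Members called higher numbered 0 to 1 and lower 0 to 1, further genes 4 to 6 higher and 0 to 5 lower, and all genes 958 to 1379 higher and 638 to 1205 lower (limma). The count of 0 further genes lower came without pull-down array 1, where 5 had an unadjusted p under 0.05. A signal near the lower limit of the values limits what the dim probes of RIF1 and PRKDC can show.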
